A study of Mus musculus with 6 samples.

Results

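The transcription factors described here assign cortical projection neurons to layers and axon targets. They comprise 9 of the 18193 genes named on the array (Fezf2, Bcl11b, Tbr1, Sox5, Lmo4, Cux1, Cux2, Rorb and Lhx2), chosen by symbol as regulators of layer and projection class, and every probe set that names 1 of them alone was taken, 30 of the 45101 on the array. The study compared RNA bound to tagged ribosomes from the cortex of untreated mice of 2 bacTRAP lines, with 3 biological replicates of each line and 1 array per replicate. In bacTRAP mice, a large genomic transgene (BAC) that carries a driver gene's regulatory DNA expresses a tagged ribosomal protein, and the messengers on the tagged ribosomes are pulled from the tissue lysate. The Glt25d2 group was line DU9 and the S100a10 group line ES691, both crossed from FVB onto C57BL/6 for 3 to 5 generations, so each group is a single transgenic line. Both lines were taken by the study as cortical pyramidal cells, but the series text says that the S100a10 BAC also marks some cells that are not neurons.

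Fezf2, a zinc finger protein, specifies the layer 5 neurons whose axons leave the cortex for brainstem and spinal cord, and it acts upstream of Bcl11b (Ctip2), a zinc finger protein that these neurons need to extend their axons. Tbr1, a T-box factor of layer 6, represses Fezf2 in corticothalamic neurons, and Sox5 sets the order in which the deep-layer classes arise. Cux1 and Cux2 are homeodomain proteins of the upper layers, Rorb is a nuclear receptor typical of layer 4, Lhx2 is a LIM-homeodomain factor of cortical progenitors and later of upper layers, and Lmo4 is a LIM-only protein that competes for the same LDB cofactors and marks callosal neurons.

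As deposited, the deep-layer factors Fezf2, Bcl11b and Sox5 had lower intensities in the S100a10 line than in the Glt25d2 line, whereas Rorb, Lhx2, Lmo4 and Cux1 were higher. Rorb and Lhx2 were also called higher under every other scaling of the arrays described below, but Lmo4 and Cux1 were not. Of the 30 probe sets, 22 had a mean intensity of at least 50 in 1 or both groups, the limit proposed in the series text, and were tested; the remaining 8, of Sox5 and Cux1, lay between 4.72 and 23.7 in every array. Values are the authors' deposited GCRMA intensities, and each difference is S100a10 minus Glt25d2 on the log2 scale; p-values are from limma, adjusted by Benjamini-Hochberg over the 21291 probe sets tested. Of the 22 probe sets, 11 were higher in S100a10 cells and 8 lower, where 44.2% of all probe sets tested were higher and 4.39% lower. The arrays of the groups did not overlap for 20 of the 22, against 62.7% of all probe sets tested. The median difference was 0.48 over the 22 and 0.55 over all.

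The whole table was shifted toward S100a10, and the deposited quantiles differed between the groups, with a median intensity of 20.4 to 21.3 in the Glt25d2 arrays and 35.5 to 35.8 in the S100a10 arrays. Other scalings were therefore set beside the deposited one: quantile normalization, centring each array on its median, and centring each array on the median of 12 pan-neuronal genes. Of all calls 91.0% pointed to S100a10 as deposited, 46.4% after quantile normalization, 34.3% after centring on the median and 96.7% after centring on pan-neuronal genes, and the median difference over all probe sets was 0.55, -0.06, -0.21 and 0.76 in that order. The members counted as higher and lower were 5 and 9 after quantile normalization, with 16.8% and 19.4% of all probe sets, 7 and 9 after median centring, with 15.8% and 30.3%, and 11 and 7 after centring on pan-neuronal genes, with 51.9% and 1.75%. Centring on pan-neuronal genes raised the differences, although the 12 genes themselves had a median difference of 0.16 as deposited. Their intensities are unlike, so genes of middle rank set the centre of an array. Nefm, near the middle in each array, had 10781 in every Glt25d2 array and 6527 ± 650 in S100a10 arrays (SD, n = 3). Its part in the shift was not tested. Called lower in each of the 4 scalings were 7 probe sets of 3 genes (Fezf2, Bcl11b and Sox5). Called higher in each were 4 probe sets of 3 genes (Rorb, Lhx2 and Cux2).

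**Figure D1:**
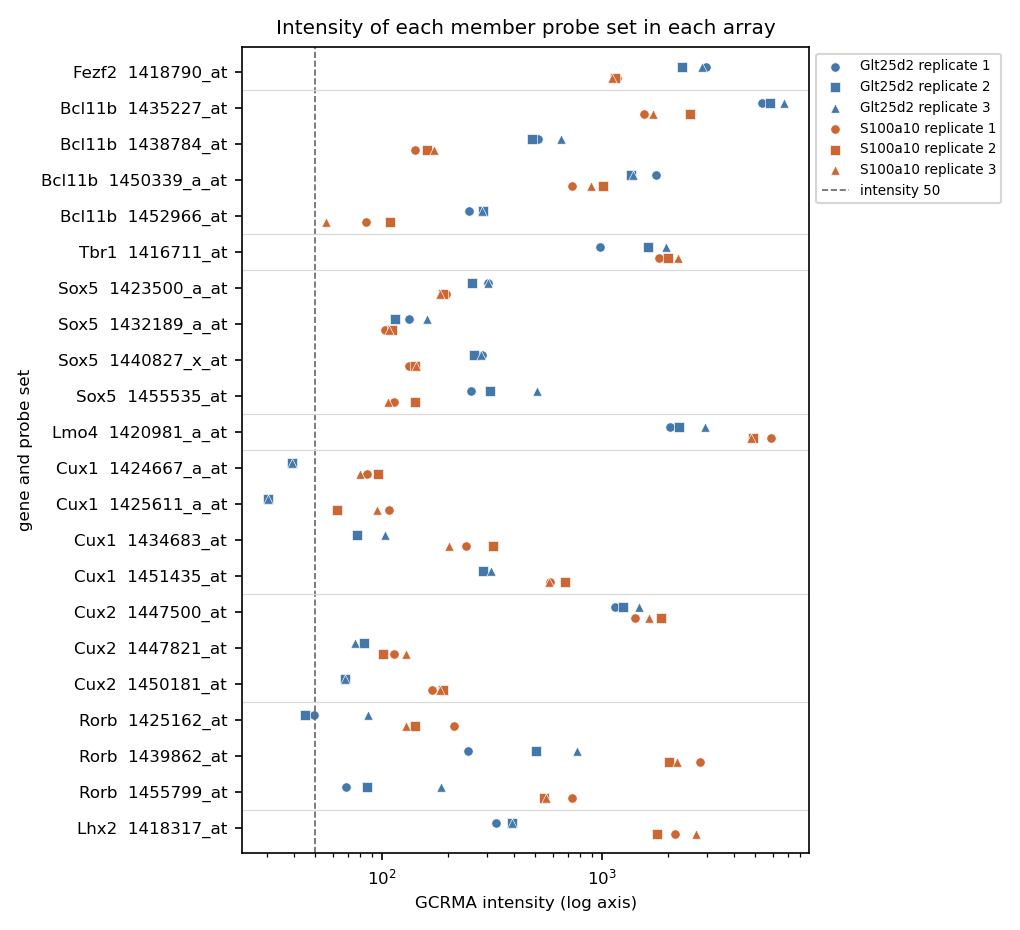
GCRMA intensity (x axis, log scale) of the 22 tested probe sets in each of the 6 arrays, Glt25d2 in blue and S100a10 in orange, with a marker shape per replicate and a dashed line at an intensity of 50. The S100a10 arrays lie to the left for Fezf2, Bcl11b and Sox5 and to the right for Lmo4, Cux1, Rorb and Lhx2, and the groups overlap for Tbr1 and for Cux2 1447500_at.

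Fezf2 was read by a single probe set, 1418790_at. Its intensity was 2981, 2307 and 2867 in Glt25d2 replicates 1 to 3 and 1177, 1144 and 1117 in S100a10 replicates 1 to 3. The S100a10 arrays were close together and all below the lowest Glt25d2 array. Fezf2 fell by 1.24 (SE 0.13, limma adjusted p = 0.000745), which is 2.36-fold higher in Glt25d2 cells. The difference was -1.65 after quantile normalization, -2.01 after median centring and -1.03 after centring on pan-neuronal genes.

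Bcl11b was read by 4 probe sets and was lower in S100a10 cells by each of them. The probe set with the highest mean, 1435227_at, had 5377, 5821 and 6713 in Glt25d2 arrays and 1554, 2512 and 1703 in S100a10 arrays. The groups were far apart, with S100a10 replicate 2 the highest of its group. The difference was -1.66 (SE 0.21, limma adjusted p = 0.0016), or 3.16-fold. Probe sets 1438784_at and 1452966_at gave -1.79 (SE 0.16) and -1.77 (SE 0.26). Probe set 1450339_a_at gave a smaller difference of -0.77 (SE 0.17, limma adjusted p = 0.0138), from 1503 ± 232 to 880 ± 138 (SD, n = 3 each). Within each array its log2 ratio to 1435227_at, relative to the Glt25d2 mean, was -0.28 to 0.39 in Glt25d2 and 0.68 to 1.06 in S100a10 arrays, so the 2 readings of Bcl11b moved by unequal amounts. Which transcripts each probe set detects was not determined.

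Sox5, a SOX factor that lacks a transactivation domain of its own, was read by 7 probe sets, of which 3 (1432190_at, 1452511_at and 1459261_at) were under the limit and 3 of the 4 tested fell. Probe set 1455535_at had 254, 311 and 506 in Glt25d2 arrays and 114, 141 and 107 in S100a10 arrays. Glt25d2 replicate 3 was the highest array, and the groups did not overlap. The difference was -1.51 (SE 0.28, limma adjusted p = 0.00662). Probe set 1440827_x_at, whose suffix marks probes that can bind other sequences, changed by -0.99 (SE 0.09), and 1423500_a_at by -0.60 (SE 0.11). The dimmest of them, 1432189_a_at, gave -0.33 (SE 0.15, limma adjusted p = 0.112). After quantile normalization and after median centring all 4 passed as lower; after centring on pan-neuronal genes 1423500_a_at no longer passed, at -0.39 (limma adjusted p = 0.1), nor did 1432189_a_at, at -0.13.

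Tbr1, the layer 6 factor, did not pass. Its probe set 1416711_at had 983, 1625 and 1955 in Glt25d2 arrays and 1813, 2011 and 2230 in S100a10 arrays. The groups overlapped, and Glt25d2 replicate 1 was well below the other two arrays of its line. The difference was 0.46 (SE 0.27, limma adjusted p = 0.21) as deposited, 0.05 after quantile normalization and -0.31 after median centring. Without Glt25d2 replicate 3 it was 0.67 and passed (limma adjusted p = 0.0391), and without Glt25d2 replicate 1 it was 0.17.

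Among the factors of upper layers, Rorb and Lhx2 had the largest differences. Rorb was read by 3 probe sets, and the one with the highest mean, 1439862_at, had 247, 504 and 768 in Glt25d2 arrays and 2796, 2014 and 2192 in S100a10 arrays. Every S100a10 array was above every Glt25d2 array, and the Glt25d2 arrays themselves spanned a wide range. Rorb rose by 2.34 (SE 0.42, limma adjusted p = 0.00624), or 5.05-fold. Probe set 1455799_at gave 2.56 (SE 0.39), from 68.7, 85.9 and 187 to 735, 549 and 559. Probe set 1425162_at, under 50 in 2 of the 3 Glt25d2 arrays, gave 1.45 (SE 0.32) and did not pass after quantile normalization (0.53, limma adjusted p = 0.288) or median centring (0.68, limma adjusted p = 0.144); after quantile normalization without Glt25d2 replicate 3 it passed (0.90, limma adjusted p = 0.0141). The other two readings of Rorb passed in all 4 scalings, between 1.57 and 2.77.

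Lhx2 was read by 1 probe set, 1418317_at, with 332, 390 and 390 in Glt25d2 arrays and 2165, 1787 and 2679 in S100a10 arrays. The groups were separated by more than the whole spread within either. Lhx2 rose by 2.56 (SE 0.18, limma adjusted p = 0.000158), or 5.89-fold, and by 1.79 to 2.77 under the other scalings, each time past the threshold. Lhx2 and Rorb are also known from glial and progenitor cells. In a bulk pull-down, a change in the number of cells of a type cannot be told apart from a change in RNA per cell. Of 10 tested astrocyte genes, 3 were called higher in S100a10 cells and 2 lower, where 44.4% and 4.5% of all genes were. Their summed intensity was 9934 to 19910 in Glt25d2 and 20243 to 26118 in S100a10 arrays. Gjb6, an astrocyte connexin with the largest difference of the 10, had 87.0 ± 73.6 and 4815 ± 275 in the Glt25d2 and S100a10 arrays. Gfap had 101 ± 23.3 and 35.1 ± 12.7 (SD, n = 3 each), and Aldoc fell by 1.07 (SE 0.19). Besides Gjb6, Aldh1l1 at 2.23 (SE 0.13) and Sox9 at 1.05 (SE 0.12) were called higher. Sox9 did not pass after quantile normalization (0.18) or median centring (0.28). The 5 that did not pass were Slc1a3 at 2.49, Gja1 at 1.98, Slc1a2 at 1.06, Fgfr3 at 0.95 and Aqp4 at -0.59. The part of astrocyte messengers in the Rorb and Lhx2 values was not tested.

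Lmo4 was read by 1 probe set, 1420981_a_at, with 2048, 2258 and 2952 in Glt25d2 arrays and 5854, 4867 and 4784 in S100a10 arrays. All S100a10 arrays were above the highest Glt25d2 array. Lmo4 rose by 1.11 (SE 0.17, limma adjusted p = 0.00364), or 2.15-fold, and by 0.80 after quantile normalization; after median centring it was 0.34 and did not pass (limma adjusted p = 0.197).

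The promoters of Rorb and Lmo4, which both rose, are shown because the 250 bases before their outermost start lie outside every RefSeq gene. The windows of their other listed starts lie inside the gene itself and are not shown. For the other members that window overlaps a longer model of the same gene or another gene, and none is shown. Sequences are from RefSeq on GRCm38.p6, minus strand, read 5′ to 3′ and ending at the base before the start, at chr19:19111197-19111446 for Rorb and chr3:144205256-144205505 for Lmo4. Capitals mark the CCAAT box (CCAAT), the GC box (GGGCGG) and the letters TATAA on either strand, letters chosen after the sequences were seen.
Rorb: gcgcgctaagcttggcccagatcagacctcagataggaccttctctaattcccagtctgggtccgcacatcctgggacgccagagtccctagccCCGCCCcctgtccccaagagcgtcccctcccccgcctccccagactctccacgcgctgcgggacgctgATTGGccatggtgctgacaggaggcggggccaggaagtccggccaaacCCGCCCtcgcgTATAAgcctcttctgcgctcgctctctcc
Lmo4: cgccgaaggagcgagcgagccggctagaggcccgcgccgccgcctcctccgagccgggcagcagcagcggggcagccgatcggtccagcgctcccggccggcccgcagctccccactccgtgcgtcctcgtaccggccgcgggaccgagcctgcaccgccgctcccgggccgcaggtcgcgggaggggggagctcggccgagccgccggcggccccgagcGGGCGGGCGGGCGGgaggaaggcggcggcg
The Rorb window held 1 CCAAT box, 2 GC boxes and 1 TATAA, and the Lmo4 window 3 overlapping GC boxes and none of the others. Over 32851 RefSeq windows of 250 bases, 33.8% held a CCAAT box, 32.7% a GC box and 22.8% a TATAA. GC content was 66.0% for Rorb and 82.4% for Lmo4, against a median of 52.4% over all windows. Letters bound by families of the members, TAATTA for homeodomains, AACAAT for SOX proteins, AGGTCA for ROR receptors and GGTGTGA for T-box factors, were in neither window on either strand; they were in 4.84%, 9.42%, 14.0% and 3.33% of all windows.

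Cux1 was read by 9 probe sets, of which 4 rose and 5 were under the limit (1424668_a_at, 1425612_at, 1437431_at, 1437686_x_at and 1441956_s_at). The brightest, 1451435_at, had 288, 288 and 315 in Glt25d2 arrays and 583, 679 and 577 in S100a10 arrays. The groups did not overlap, and Glt25d2 replicates 1 and 2 held the same value. The difference was 1.04 (SE 0.11, limma adjusted p = 0.000815), and 1434683_at gave 1.56 (SE 0.22). The other two tested lay under 50 in every Glt25d2 array, where all 3 held an identical value (39.0 for 1424667_a_at and 30.3 for 1425611_a_at), and were at least 1.74-fold and 1.72-fold higher in S100a10 cells against a level of 50. After quantile normalization none of the 4 passed, at 0.22 to 0.69 with limma adjusted p between 0.0671 and 0.241 for these 4 probe sets, but 3 of the 4 passed when Glt25d2 replicate 3 was left out as well (1425611_a_at at 0.67, 1434683_at at 0.89 and 1451435_at at 0.46). After median centring 3 of the 4 passed, and after centring on pan-neuronal genes all 4 did, at 1.25 to 1.76. The bounds were computed on the deposited scale and on no other. Probe sets 1424667_a_at and 1425611_a_at reached the limit through the S100a10 group alone, so they could enter only as higher. With a mean of at least 50 required in both groups they were left out, and 9 member probe sets were higher.

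Cux2, the relative of Cux1 that is more restricted to upper-layer neurons, differed between its 3 probe sets. The brightest, 1447500_at, had 1146, 1247 and 1473 in Glt25d2 arrays and 1413, 1868 and 1647 in S100a10 arrays. The groups overlapped, the difference was 0.35 (SE 0.16, limma adjusted p = 0.116), and it was -0.10 after quantile normalization and -0.42 after median centring. It passed as higher without Glt25d2 replicate 3 (0.45, limma adjusted p = 0.0399) and with array weights (0.40, limma adjusted p = 0.0167). By contrast 1450181_at held 68.2 in every Glt25d2 array against 169, 191 and 184 in S100a10 arrays, a rise of 1.41 (SE 0.09, limma adjusted p = 0.000144) that stayed past the threshold at 0.51 after quantile normalization. Its identical Glt25d2 values understate the spread of that group. The third, 1447821_at, rose by 0.51 (SE 0.12, limma adjusted p = 0.0192), turned to -0.41 after quantile normalization and -0.26 after median centring, and did not pass without Glt25d2 replicate 1 (0.53), Glt25d2 replicate 2 (0.53) or S100a10 replicate 1 (0.51). Within arrays, the log2 ratio of 1450181_at to 1447500_at was -0.20 to 0.16 in Glt25d2 and 0.94 to 1.17 in S100a10 arrays, relative to the Glt25d2 mean, so the readings of Cux2 moved by unequal amounts. Of the 22 probe sets, 8 had at least 2 identical Glt25d2 values, against 23.4% of all tested. None had any in S100a10 arrays, against 0.207% of all tested, so such ties were a trait of the Glt25d2 arrays across the table.

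**Figure D2:**
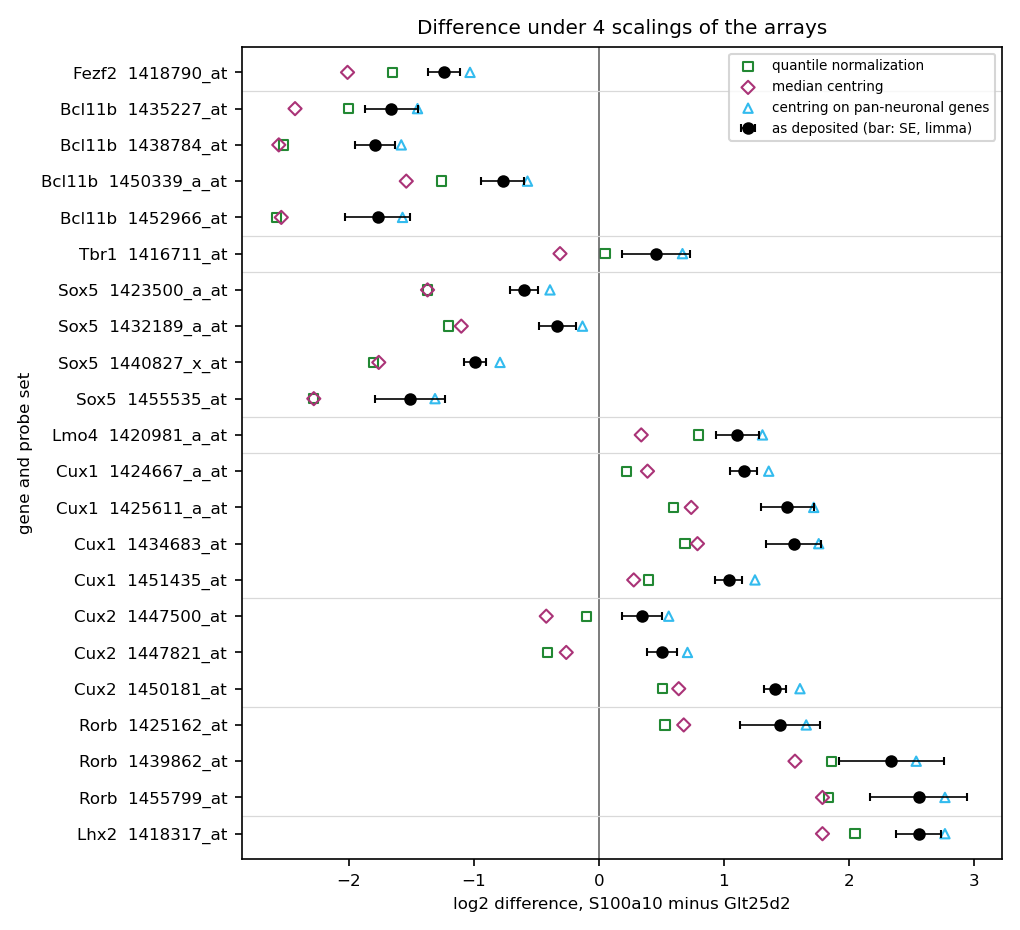
Log2 difference of S100a10 minus Glt25d2 (x axis) for the 22 tested probe sets, as deposited (black, with limma's SE) and after quantile normalization, median centring and centring on pan-neuronal genes (open symbols). Fezf2, Bcl11b and Sox5 stay below 0 and Rorb, Lhx2, Lmo4 and Cux1 above 0 in each scaling, while Tbr1 and 2 of 3 Cux2 probe sets lie on both sides of 0.

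Ratios between 2 members within an array do not depend on how that array is scaled as a whole, so they show unequal change in a way that centring cannot alter. They are given as log2 values relative to the Glt25d2 mean, for the probe set of each gene with the highest mean. All are from the deposited values. Quantile normalization moves probe sets by unequal amounts and can alter a ratio. It changed the difference of Sox5 1423500_a_at from -0.60 to -1.37 and that of Fezf2 from -1.24 to -1.65. The ratio of Rorb to Fezf2 was -1.03, 0.37 and 0.66 in Glt25d2 arrays and 3.81, 3.38 and 3.53 in S100a10 arrays, a mean shift of 3.57 or 11.9-fold. The ratio of Lhx2 to Bcl11b shifted by 4.22, from -0.10 to 0.11 in Glt25d2 and 3.52 to 4.66 in S100a10 arrays. The LIM-only factor Lmo4 shifted by 2.77 against Bcl11b and by 2.34 against Fezf2. Cux1 shifted by 2.28 against Fezf2, Cux2 by 1.59 and Tbr1 by 1.70, and in none of these ratios did the groups overlap. The groups overlapped for Bcl11b against Fezf2 (shift -0.42) and for Lhx2 against Rorb (0.22). Sox5, read by 1423500_a_at, shifted by 0.64 against Fezf2, and the groups did not overlap; its order against Fezf2 depends on the probe set, since the difference was -1.51 for 1455535_at and -1.24 for Fezf2. An exact permutation test of 3 against 3 arrays cannot give a 2-sided p under 0.1, so none is given for these ratios.

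**Figure D3:**
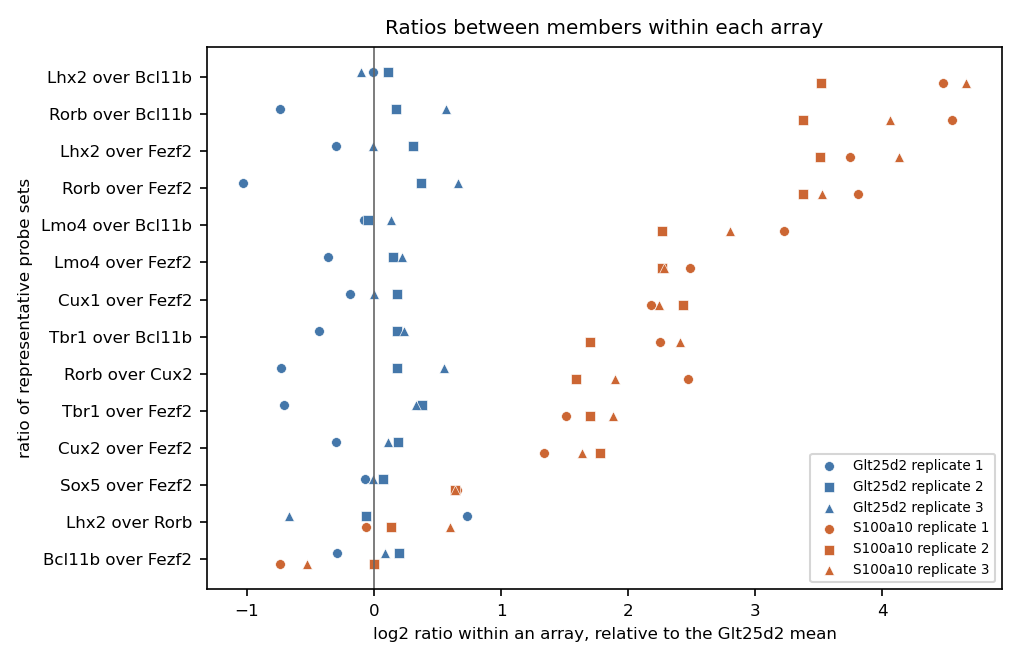
Log2 ratio of 2 member genes within each array, relative to the mean of the Glt25d2 arrays (x axis), with a row per ratio, Glt25d2 in blue and S100a10 in orange and a marker shape per replicate. Ratios of Rorb, Lhx2, Lmo4, Cux1, Cux2 and Tbr1 to Fezf2 lie above the Glt25d2 range in all 3 S100a10 arrays, while Bcl11b over Fezf2 and Lhx2 over Rorb overlap.

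The Glt25d2 arrays differed among themselves for several members. Replicate 3 was the highest of its group for 12 of the 22 probe sets, against 51.8% of all tested, and the lowest for 1, against 24.2%. Its log2 distance from the mean of the other two arrays was 1.12 for Rorb 1439862_at, 0.85 for Sox5 1455535_at, 0.63 for Tbr1 and 0.46 for Lmo4, with a median of 0.20 over the 22 and 0.09 over all. It was smaller for Fezf2 at 0.13 and Lhx2 at 0.12, and below 0 for Bcl11b 1450339_a_at at -0.16 and Cux2 1447821_at at -0.14. Several marker genes were far lower in replicate 3 than in replicates 1 and 2. In replicates 1 to 3, Gja1 of the astrocyte list had 3699, 5382 and 349. Sst of the interneuron list had 437, 595 and 76.6, and Syt1 of the pan-neuronal list 13806, 12212 and 2258. Gad1 (8838, 13434 and 13294) and Gfap (74.3, 117 and 111) were not lowest there. The cause was not tested. Without Glt25d2 replicate 3, 13 probe sets of the members were higher in S100a10 cells and 8 lower, where 55% and 5.99% of all probe sets were. With quantile normalization as well, leaving out that array changed the count of higher members from 5 to 9, with 9 lower, where 22.4% and 24% of all probe sets were higher and lower.

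By likeness of profile, the root mean square difference of centred log2 values over the 6 arrays was computed against every gene's probe set with the highest mean. Nearest to Fezf2 were Plcb4 (0.103), a phospholipase C, Pdlim1 (0.107) and Rwdd2a (0.122). The nearest to Bcl11b were Meis2 (0.113), a homeodomain factor, Tox2 (0.155) and Tmem74 (0.167). For Lhx2 they were Rin3 (0.089), Nxnl2 (0.131) and Zfp862-ps (0.135), and for Rorb Cpne9 (0.156), Isoc1 (0.179) and Kat2b (0.219), an acetyltransferase. Among the members themselves the closest pairs were Lmo4 with Cux1 (0.185), Tbr1 with Cux2 (0.235) and Fezf2 with Sox5 (0.323).

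Other regulators of the same neurons were taken from 4 lists of 50 genes in all, of which 45 had a probe set naming them alone and 39 passed the limit. Of the 39, 15 were higher in S100a10 cells, 5 lower and 19 did not pass, where 44.4% of the 11821 genes (1 probe set each) were higher and 4.5% lower. Their median difference was 0.20, against 0.56 over all genes.

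Of 10 deep-layer and corticofugal regulators, 3 fell and 2 rose, where 4.5% and 44.4% of all genes did, with a median of -0.53. Pou3f1, a POU factor of layer 5 neurons, had 3106 ± 165 in Glt25d2 and 552 ± 73.7 in S100a10 arrays (SD, n = 3 each) and fell by 2.50 (SE 0.13, limma adjusted p = 6.54e-05). Ldb2, a LIM cofactor enriched in corticospinal neurons, fell by 1.17 (SE 0.25) and Nr4a2, an orphan nuclear receptor of layer 6b, by 1.01 (SE 0.15). Nr2f1, which limits corticospinal fate in sensory areas, rose by 1.30 (SE 0.09) from the same value, 3597, in all Glt25d2 arrays, and Casz1, a zinc finger factor, was at least 1.79-fold higher, a bound for the deposited scaling; it did not pass after quantile normalization (0.17, limma adjusted p = 0.372) or median centring (0.34, limma adjusted p = 0.0737). Tle4 at -0.63, Zfpm2 at -0.59 and Foxp2 at 1.23, all layer 6 markers, did not pass. After quantile normalization 6 of the 10 were lower and 1, Nr2f1, was higher, where 19.4% and 16.8% of all probe sets were.

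Of 10 upper-layer and callosal regulators, 7 rose and none fell, where 44.4% and 4.5% of all genes did, with a median of 0.87. Nr2f2, a COUP-type receptor, rose by 2.29 (SE 0.09, limma adjusted p = 2.42e-05), from 179 ± 5.37 to 880 ± 29.8 (SD, n = 3 each), Prdm8, a PRDM-family repressor, by 1.16 (SE 0.11), Rora by 1.01 (SE 0.31), Pou3f3 by 0.97 and Foxp1 by 0.96. Foxp1 held the same value, 1180, in all Glt25d2 arrays. The remaining risers were Ski, a co-repressor of callosal neurons, at 0.78 and Pou3f2 at 0.71. After quantile normalization 3 of the 10 were higher (Nr2f2 at 1.64, Prdm8 at 0.81 and Foxp1 at 0.55) and 1, Bhlhe40, was lower at -0.67. In that scaling 16.8% of all probe sets were higher and 19.4% lower. Pou3f2 turned to -0.20 after quantile normalization and -0.06 after median centring, and Foxp1 (0.19), Ski (0.01), Pou3f3 (0.20) and Rora (0.25) did not pass after median centring, which left 2 of the 7, Nr2f2 and Prdm8. Rora did not pass when any 1 array other than Glt25d2 replicate 3 was left out (0.80 without Glt25d2 replicate 1 to 1.18 without S100a10 replicate 2), and Pou3f3 did not without Glt25d2 replicate 1 (0.76), S100a10 replicate 1 (0.96) or S100a10 replicate 3 (0.82). Nr2f2 is also known from interneurons and from vascular and connective tissue. Of 10 tested interneuron genes, 5 were called higher in S100a10 cells and 1, Pvalb, lower, where 44.4% and 4.5% of all genes were. Their summed intensities were 12791 to 18886 in Glt25d2 and 18118 to 23119 in S100a10 arrays. Gad1, the brightest, differed by 0.14 and weighs most in the sums. The median difference of the 10 was 1.65, against 0.56 over all genes. Called higher were Npy at 3.46, Sst at 2.88, Lhx6 at 2.57, Dlx1 at 1.38 and Dlx2, at least 1.49-fold, while Pvalb fell by 2.43. Sst did not pass after median centring or without any 1 S100a10 array, nor Npy without S100a10 replicate 2 or 3. Of 13 mural, fibroblast and meningeal genes 12 were higher and 1 lower, with sums of 799 to 1009 and 25305 to 30136; the part of these cells in the Nr2f2 value was not tested.

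Among 12 regulators shared by cortical excitatory neurons, 4 rose and 1 fell, where 44.4% and 4.5% of all genes did, with a median of 0.44. Emx1, a homeodomain factor of the dorsal telencephalon, rose by 1.97 (SE 0.12), Nfix by 1.28 (SE 0.11), Neurod6 by 0.94 (SE 0.19) and Mef2d by 0.37 (SE 0.10), while Sox11 fell by 0.99 (SE 0.22). Mef2d turned to -0.05 after quantile normalization and -0.40 after median centring, and did not pass without Glt25d2 replicate 1 (0.35), Glt25d2 replicate 2 (0.35), S100a10 replicate 2 (0.34) or S100a10 replicate 3 (0.33). Neurod6 did not pass after median centring (0.17, limma adjusted p = 0.548), nor Sox11 without S100a10 replicate 3 (-0.92, limma adjusted p = 0.0544). Mef2c at 0.03 and Neurod2 at 0.20 did not pass, and neither did 5 others. Emx2 and Pax6, also known from progenitors and glia, were under the limit. Of 9 paralogues and LIM cofactors tested, 3 rose and 2 fell, beside the same 44.4% and 4.5% of all genes. Ldb1, the common cofactor of LIM-homeodomain and LIM-only proteins, rose by 1.63 (SE 0.18), whereas its relative Ldb2 fell, as given above, and Lmo3 fell by 0.79 (SE 0.18), though by 0.58 and not past the threshold after centring on pan-neuronal genes (limma adjusted p = 0.076). Sox13, a relative of Sox5, was at least 1.13-fold higher but did not pass with values under 50 set to 50 (0.18, limma adjusted p = 0.221), and Rora, a relative of Rorb, rose as given above. Bcl11a, the paralogue of Bcl11b, differed by 0.11 (SE 0.10, limma adjusted p = 0.389), and Fezf1, Eomes, Tbx21 and Lhx9 were under the limit.

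**Figure D4:**
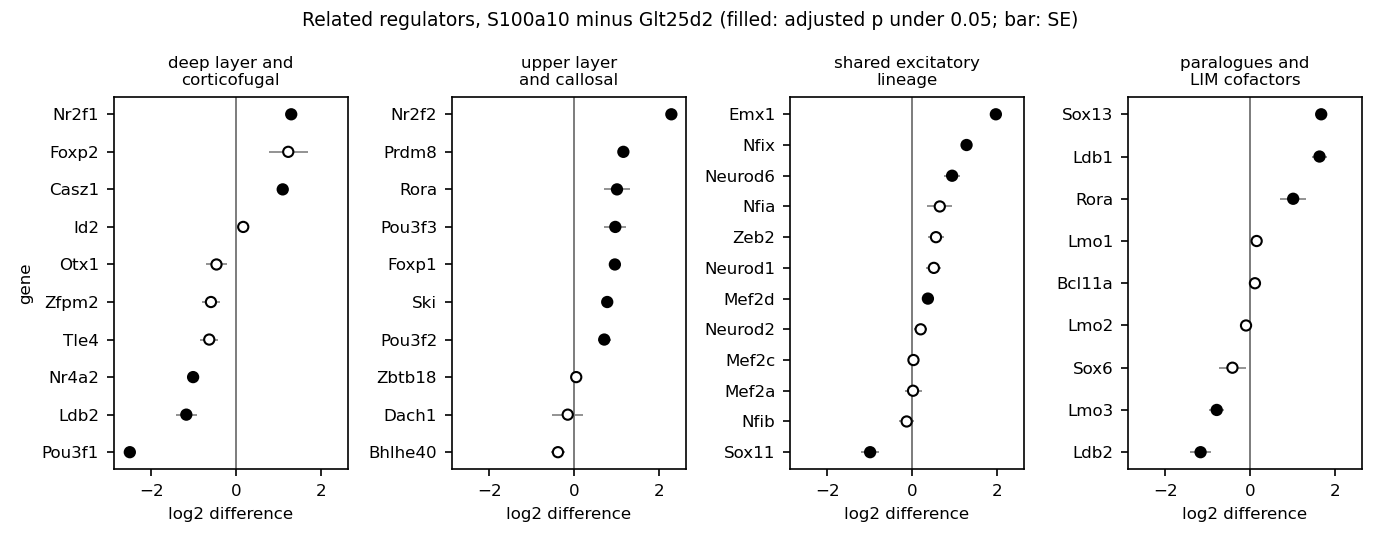
Log2 difference of S100a10 minus Glt25d2 as deposited (x axis) for the tested genes of the 4 lists of related regulators, 1 probe set per gene, with limma's SE as bars and filled circles for an adjusted p under 0.05. Pou3f1 and Ldb2 lie lowest among the deep-layer genes, and 7 of 10 upper-layer genes are filled above 0, where 44.4% of all genes were called higher.

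The label of cortical pyramidal cells was set beside marker lists. The lists were picked with earlier results of these data known, so their counts describe the values and are not an independent check. The counts stand beside 44.4% of all 11821 genes (1 probe set each) that were higher and 4.5% that were lower. The mural, fibroblast and meningeal list given beside Nr2f2 had the largest median difference of the 9 marker lists, 5.61, with 12 of 13 genes higher in S100a10 cells; of the interneuron and astrocyte lists given above, 5 and 3 of 10 were higher. Of 7 excitatory neuron genes, all tested, 4 were higher in S100a10 cells and none lower, with summed intensities of 13845 to 16105 in Glt25d2 and 18978 to 19949 in S100a10 arrays. Of 12 pan-neuronal genes 3 were higher and 2 lower, with sums of 131987 to 135506 and 145557 to 150537. Of 8 oligodendrocyte genes 1 was higher and 2 lower, with sums of 17904 to 24140 and 9371 to 15898. For endothelium, 4 of 7 genes (Pecam1, Flt1, Tek and Kdr) were under the limit and 1 of the other 3 was lower, and for microglia C1qa and Itgam were under it and 1 of 4 was higher. Of 3 oligodendrocyte precursor genes 1 was higher.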

How the data were processed

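RNA pulled down with tagged ribosomes was amplified in 2 cycles from 15 ng, labelled with biotin and hybridised to Affymetrix mouse arrays, per the labels' protocols. The table deposited by the authors gives GCRMA intensities (linear, not log2), per the submitters' processing notes and the values themselves; the tool's version and the genome build are not given in the sources used here. Members and lists were picked with earlier results of these data known.

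Of 45101 probe sets, 64 controls were left out, and 34945 named 1 gene in the platform annotation. The Entrez identifiers of all 30 member probe sets gave the same symbol in RefSeq. The log2 of each intensity, with no pseudocount, entered a limma fit (version 3.58.1, R 4.3.3) for the 21291 probe sets whose mean reached 50 in 1 or both groups; lmFit and eBayes were run 2-sided with no block, Benjamini-Hochberg adjustment and a threshold of 0.05. The fit was tested on simulated data. A gene in a list was read by the tested probe set of highest mean log2. A fold against a group with all arrays under 50 is a bound, computed with 50. Quantile normalization and median centring used all probe sets other than controls, so those under the limit entered both. The array medians used for centring, 20.4 to 35.8, were themselves under 50. Named were all member probe sets, up to 5 passing genes per list with the largest differences and others a count rests on, and the 3 nearest genes for Fezf2, Bcl11b, Lhx2 and Rorb; further list genes and markers were chosen after their values were seen. With 3 arrays a group, precision is limited by their number. Tables and plots were made in Python 3.11.15 (numpy 2.4.6, pandas 2.3.3, matplotlib 3.10.9).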

Additional observations from a re-analysis of the deposited data

How the results depend on the processing

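The counts for the 9 genes, 11 probe sets higher in S100a10 cells and 8 lower, became 5 higher after quantile normalization (9 when Glt25d2 replicate 3 was also left out) and 7 after median centring, and 4 and 3 with 1 probe set per gene, a fit that holds 9 probe sets of the members. Leaving out each array gave 10 to 13 higher and 8 to 8 lower. With a mean of at least 50 required in both groups, 9 member probe sets were higher and 8 lower, where 6340 and 687 of 17985 probe sets were. That setting left out Casz1 and Sox13, which reached the limit through the S100a10 group alone. It gave 13 related regulators higher and 5 lower. Related regulators, 15 higher and 5 lower, became 9 and 12 after quantile normalization, 7 and 20 after median centring, 8 lower with array weights, 12 lower after quantile normalization without Glt25d2 replicate 3, and 26 higher after centring on pan-neuronal genes without that array, a setting added after seeing the data; leaving out each array gave 12 to 19 higher and 4 to 7 lower. The counts for all probe sets tested, 9405 higher and 934 lower, were 3574 and 4128 after quantile normalization, 3363 and 6447 after median centring, 11052 and 373 after centring on pan-neuronal genes, 19640 and 5131 without a filter, and 12541 and 1537 with array weights. Centring on pan-neuronal genes without Glt25d2 replicate 3 gave 15651 and 634 of 21291, so the rise to 26 regulators went with a rise over the whole table. With 1 probe set per gene, 5285 and 542 of 11821 were called. Across the fits that each left out 1 array, 7354 to 11720 were higher and 610 to 1276 lower. Signs turned for Cux2 1447500_at (-0.10 after quantile normalization, -0.42 after median centring, -0.01 after quantile normalization without Glt25d2 replicate 3), Cux2 1447821_at (-0.41, -0.26 and -0.37 in that order), Tbr1 (-0.31 after median centring) and Sox5 1432189_a_at (0.08 after centring on pan-neuronal genes without Glt25d2 replicate 3). Centring adds 1 constant to every difference by construction; for the other settings the cause was not tested.

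With the replicate number as a replicate block, 10 member probe sets were higher and 7 lower, where 35.0% and 2.62% of all probe sets tested were, and 12 and 5 of the related regulators. Bcl11b 1450339_a_at (-0.77) and Cux2 1447821_at (0.51) no longer passed. The deviations of arrays with the same number correlated at -0.452, 0.224 and -0.238. Only the arrays numbered 2 correlated best with each other. Deviations from a mean of 3 arrays depend on each other, so these values cannot show whether arrays of the same number were processed together.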
